A study of Homo sapiens with 6 samples.

Results

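Matrix proteases cut the collagen and other proteins that surround cells, and inhibitors made by the same cells hold them in check. The 9 genes described here are 4 matrix metalloproteinases (MMP1, MMP7, MMP10 and MMP14), 3 tissue inhibitors of metalloproteinases (TIMP1, TIMP2 and TIMP3), the urokinase gene PLAU and the urokinase receptor gene PLAUR. They were chosen by gene symbol from the 19470 genes of the count table, with earlier results of these data known. No measured value entered the rule itself. All 9 were in the table, and all 9 were among the 13066 genes that passed a filter on low counts and were tested.

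The cells were HCCC9810, an established human line of cholangiocarcinoma (CCA), the cancer of bile duct epithelium. Both groups were labelled wild type. The treated group received the plant compound isolinderalactone (ILL) at 20 μM for 24 h, and the control group received the vehicle, DMSO, for the same time. Each group had 3 libraries made from total RNA. The labels number the replicates but do not say that they were separate cultures, so p-values measure the spread between these libraries, which may be technical. The groups represent 1 cell line at 1 dose and 1 time. The study also measured migration and invasion of these cells in culture and reported that ILL lowered both. The RNA comparison here asks which protease and inhibitor transcripts differed with ILL.

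Metalloproteinases are made as inactive zymogens and are switched on when another protease removes an inhibitory propeptide. MMP14 is anchored in the plasma membrane, cuts fibrillar collagen there and activates pro-MMP2 with the help of TIMP2. Urokinase, bound to its receptor at the cell surface, turns plasminogen into plasmin, which degrades fibrin and can activate several pro-MMPs. In carcinomas of the bile duct and of other organs, these systems are known for their part in local invasion. RNA levels do not measure zymogen activation or protease activity.

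Total counts ranged from 34282764 to 37758569 per library. No library repeated another of its group within sampling error (chi-square per degree of freedom 5.09 to 11.5 between pairs), so each was 1 replicate. Of 10 biliary epithelial markers, 8 were tested, and their summed level was 9051 to 9294 CPM (counts scaled to a common library size) in controls and 9532 to 10122 CPM with ILL. KRT7, KRT8, KRT18, KRT19 and EPCAM were abundant, while CFTR had 0 counts in every library, where a count of 0 allows up to 3. Fibroblast markers summed to 12.2 to 14.2 CPM in controls and 16.8 to 18.5 CPM with ILL, with DCN and PDGFRA at 1 count or fewer. Most of that was COL1A1, at 10.2 ± 1.4 CPM in controls and 14.9 ± 1.9 CPM with ILL (SD, n = 3). COL1A1 was higher with ILL (log2 fold change 0.55, adjusted p = 0.000356, edgeR), and LUM had 43 to 126 counts per library. Leukocyte markers summed to 37.8 to 42.4 CPM in controls and 113 to 119 CPM with ILL. Nearly all of that was CD68, a lysosomal gene, at 37.8 ± 2.7 CPM in controls and 113 ± 3.4 CPM with ILL (SD, n = 3), while PTPRC had at most 9 counts and CD3E at most 3 in any library. Endothelial markers summed to 1.21 to 1.68 CPM in controls and 1.74 to 1.91 CPM with ILL, and 1 of the 3 tested, VWF, was a DEG higher with ILL (log2 fold change 2.05, adjusted p = 0.0179, edgeR) at no more than 25 counts. That call was lost without control replicate 1 or 3 and without ILL replicate 1 or 2, at log2 fold changes of 1.48 to 1.94. Hepatocyte markers summed to 29.7 to 33.6 CPM in controls and 29.2 to 47.3 CPM with ILL, with CYP3A4 at 0 counts. SERPINA1 had 717 to 903 counts per library. ALB had 245, 160 and 240 counts in controls and 214, 240 and 541 with ILL. ALB passed the test as higher (log2 fold change 0.69, adjusted p = 0.0115, edgeR), but the groups overlapped and ILL replicate 3 stood apart. TF was highest in that library too, at 159 counts. The part of CD68 or of any other marker in the results below was not tested. In bulk RNA, a change in the number of cells that express a gene and a change in RNA per cell cannot be told apart.

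MMP7 and MMP10 carry nearly the same short promoter elements, and with ILL the RNA of MMP10 rose while that of MMP7 did not pass the test, so their sequences are shown side by side before the values. Both lie in a cluster of metalloproteinase genes on chromosome 11, and each has a TATA box sequence (TATAAA) and a match to the AP-1 consensus TGANTCA, the site of FOS and JUN dimers. The stretches below run from 130 to 11 bases upstream of the RefSeq transcription start (GRCh38.p14), 5′ to 3′ on the minus strand from which both genes are read. Capitals mark the AP-1 and TATA matches.
MMP7, chr11:102530758-102530877: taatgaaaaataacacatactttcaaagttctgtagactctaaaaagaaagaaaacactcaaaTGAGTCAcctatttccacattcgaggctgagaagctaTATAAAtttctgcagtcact
MMP10, chr11:102780639-102780758: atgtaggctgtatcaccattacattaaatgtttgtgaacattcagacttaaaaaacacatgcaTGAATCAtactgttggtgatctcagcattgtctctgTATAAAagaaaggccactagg
In both genes the AP-1 match starts 67 bases upstream of the start, and they differ in the central base of the motif. PLAUR, the gene with the largest rise of the 9, holds the same 7 letters as MMP7 farther out, starting 186 bases upstream, and is shown with 10 bases on either side on its own minus strand.
PLAUR, chr19:43670339-43670365: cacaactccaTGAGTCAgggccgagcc
RefSeq windows were matched for 7 of the 9 genes, all but MMP1 and TIMP2. On either strand of the 250 bases upstream, no TGANTCA was found in MMP14, TIMP1, TIMP3 or either of the PLAU windows. Over 35116 RefSeq windows of the same length, 6.57% held TGANTCA and 10.7% held TATAAA. The motifs do not overlap each other in the stretches printed. The search took only these exact letters, so near matches, such as TGAGTAA in the TIMP1 window, were not counted. A match describes these letters and is not a measured binding site.

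With ILL, 6 of the 9 genes were differentially expressed genes (DEGs) and all 6 were higher: PLAUR, TIMP3, MMP10, MMP14, TIMP2 and PLAU. A DEG here changed more than 2-fold with an adjusted p below 0.05, where p came from edgeR's quasi-likelihood test adjusted by Benjamini-Hochberg over all genes tested. By this rule 23.9% of all tested genes were DEGs, 12.5% being higher with ILL and 11.4% lower. MMP1 and TIMP1 also rose, but by less than 2-fold, so that 8 of the 9 were past an adjusted p of 0.05, all of them higher. That looser criterion was met by 73.1% of all tested genes and in the upward direction by 36.2%. MMP7 did not pass the test. The groups did not overlap in 8 of the 9 genes, against 75.4% of all genes tested. The median log2 fold change was 1.19 over the 9 genes, and over all genes tested it lay at -0.0012. Together the 9 genes took 1087 to 1281 CPM in control libraries and 3275 to 3588 CPM in ILL libraries.

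Levels of different genes were compared in FPKM, the count divided by gene length and library total. The order of genes therefore depends on the gene lengths used, whose annotation is not given. In control cells the order by mean FPKM was MMP14, TIMP1, TIMP2, PLAU, PLAUR, TIMP3, MMP1, MMP10 and MMP7, from 134 ± 15.5 down to 0.530 ± 0.214 FPKM (SD, n = 3). The libraries of MMP14 and TIMP1 overlapped, as did those of PLAUR and TIMP3, and all other neighbours were separate. With ILL the order was MMP14, TIMP1, TIMP2, PLAUR, TIMP3, PLAU, MMP1, MMP10 and MMP7, from 396 ± 28.4 down to 0.284 ± 0.0641 FPKM (SD, n = 3), and only TIMP3 and PLAU overlapped. PLAUR and TIMP3 thus passed PLAU in this order. Among all tested genes, the mean FPKM of PLAUR moved from the 80.1 percentile in controls to the 95.8 percentile with ILL, and that of TIMP3 from 78.3 to 94.4. MMP10 moved from the 29.6 to the 57.4 percentile, while MMP14 was already at 96.0 and reached 98.8.

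MMP14, on chromosome 14 (22836557 to 22849027, plus strand; GENCODE 29 on GRCh38), had 16806, 16739 and 19391 counts in control replicates 1 to 3. With ILL it had 51259, 56073 and 49271 counts. All 3 ILL libraries lay far above all 3 controls, with 49271 as the lowest ILL count and 19391 as the highest control count. Its log2 fold change was 1.63 (standard error, SE, of 0.07, with an edgeR adjusted p = 9.82e-17), a 3.09-fold rise. Of the 9 genes it contributed the most RNA in either group.

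MMP1, the interstitial collagenase, cuts the triple helix of fibrillar collagens and lies on chromosome 11 (102789920 to 102798160, minus strand). Its control counts were 897, 1045 and 1356, and its ILL counts were 1981, 1775 and 1931. The groups did not overlap, but control replicate 3 stood nearer to the ILL libraries than the other controls did. MMP1 rose by 0.84 on the log2 scale (SE 0.11, adjusted p = 1.89e-07, edgeR), which is 1.79-fold and short of the cutoff for a DEG. Without control replicate 3 the log2 fold change was 1.04 (adjusted p = 3.24e-09, edgeR) and MMP1 became the seventh DEG. Leaving out each of the 6 libraries in turn gave values from 0.67 to 1.04.

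MMP10, or stromelysin-2, digests proteoglycans and basement membrane proteins and can activate procollagenases. It neighbours MMP1 in the chromosome 11 cluster (102770503 to 102780628, minus strand). It had 108, 115 and 173 counts in the controls and 531, 465 and 462 counts with ILL. Control replicate 3 was the highest control here as well, yet every ILL library was well above it. MMP10 rose by 1.94 on the log2 scale (SE 0.17, adjusted p = 1.42e-10, edgeR), or 3.83-fold, with values from 1.77 to 2.21 when single libraries were left out. Its level stayed modest, at 2.12 ± 0.632 FPKM in controls and 7.75 ± 0.625 FPKM with ILL (SD, n = 3).

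MMP7, or matrilysin, is a small secreted protease of epithelial cells that lacks the hemopexin domain of the other family members named so far. Its gene marks one end of the cluster (102520508 to 102530753, minus strand). MMP7 had 29, 11 and 24 counts in controls and 9, 14 and 11 counts with ILL. Control replicate 2 lay within the range of the treated group. The fitted log2 fold change of MMP7 was -0.83, with a standard error of 0.55, a 95% interval from -1.90 to 0.25 and an adjusted p of 0.178 from edgeR. At these counts neither a fall nor a small rise could be told from no change, and leaving out single libraries gave values from -1.13 to -0.61.

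The chromosome 11 cluster was read only in part in these cells. Of its 9 genes, MMP20, MMP27, MMP8, MMP3 and MMP12 had 0 or 1 count in every library, and a count of 0 allows up to 3. The expressed genes at either end, MMP7 and MMP13, frame MMP10 and MMP1. MMP13, a collagenase gene looked at after its values were seen (102942995 to 102955734, minus strand), had 121, 117 and 118 counts in controls and 194, 196 and 202 with ILL. It rose by 0.80 on the log2 scale (SE 0.19, adjusted p = 0.000497, edgeR), beside the rises of its neighbours MMP10 and MMP1.

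TIMP3, an inhibitor that binds to the extracellular matrix and also blocks ADAM17 and several ADAMTS proteases, had the largest rise of the inhibitors among the 9. The gene is on chromosome 22 (32801701 to 32863043, plus strand). It had 3948, 3670 and 3986 counts in controls and 15087, 15162 and 14859 with ILL. Spread within each group was small, and the groups were far apart. TIMP3 rose by 2.02 on the log2 scale (SE 0.05, adjusted p = 1.69e-20, edgeR), which is 4.07-fold.

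TIMP2, the inhibitor that links MMP14 to pro-MMP2 at the cell surface, is on chromosome 17 (78852977 to 78925387, minus strand). It had 10231, 9671 and 9557 counts in controls and 20759, 22261 and 21030 counts with ILL. Every ILL library was above every control. Its log2 fold change was 1.19 (SE 0.05, adjusted p = 1.6e-16, edgeR), or 2.28-fold. In FPKM it moved from 75.6 ± 1.54 to 164 ± 6.80 (SD, n = 3).

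TIMP1, a secreted inhibitor of most soluble MMPs and a weak inhibitor of MMP14, is on the X chromosome (47582313 to 47586789, plus strand). It had 3500, 3355 and 3642 counts in controls and 5319, 5595 and 5690 counts with ILL. Again the groups were separate, but the distance was the shortest of the 3 inhibitors. Its log2 fold change was 0.73 (SE 0.06, adjusted p = 4.67e-11, edgeR), or 1.65-fold, so TIMP1 rose without being a DEG.

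The unequal rises changed the make-up of TIMP RNA. TIMP1 took 54.5% to 56.7% of the summed FPKM of TIMP1, TIMP2 and TIMP3 in controls and 42.7% to 44.3% with ILL. TIMP3 took 10.4% to 10.8% in controls and 20.0% to 21.0% with ILL. TIMP2 held between 32.5% and 37.1% in all libraries. TIMP1 was still the most abundant of the 3 by FPKM in both groups.

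PLAUR encodes the urokinase receptor, a protein tethered to the membrane by a lipid anchor that focuses urokinase on the cell surface. The gene is on chromosome 19 (43646095 to 43670547, minus strand). It had 3061, 2609 and 3154 counts in controls and 13281, 14222 and 13797 counts with ILL. The groups were far apart, and control replicate 2 was the lowest. PLAUR rose by 2.29 on the log2 scale (SE 0.06, adjusted p = 2.72e-20, edgeR), a 4.90-fold rise and the largest of the 9. Only 2.62% of the tested genes had a larger log2 fold change.

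PLAU encodes urokinase itself, the protease that this receptor binds, on chromosome 10 (73909177 to 73917497, plus strand). It had 3619, 3544 and 4012 counts in controls and 7424, 7941 and 7464 counts with ILL. All ILL libraries were above all controls. PLAU rose by 1.09 on the log2 scale (SE 0.06, adjusted p = 8.17e-14, edgeR), or 2.13-fold, close to the cutoff for a DEG. It stayed a DEG in all 15 alternative fits, with the value nearest the cutoff being 1.01 on the log2 scale, from limma on log2(FPKM + 1).

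Ratios between genes of the same library do not depend on library scaling. Ratios of protease to inhibitor were compared by an exact two-sided permutation test of the mean log2 FPKM ratio, for which 3 libraries against 3 cannot give a p below 0.1, with adjustment over 4 ratios. The ratio of MMP14 to TIMP2 was 1.62, 1.71 and 2.0 in controls and 2.44, 2.49 and 2.31 with ILL. It rose in every ILL library over every control, by a mean of 0.45 on the log2 scale (exact permutation p = 0.1, adjusted p = 0.133). The ratio of MMP1 to TIMP1 was 0.104, 0.126 and 0.151 in controls and 0.151, 0.128 and 0.137 with ILL. Here the groups overlapped, and the mean log2 difference was 0.14 (exact permutation p = 0.4, adjusted p = 0.4). MMP7 to TIMP1 averaged 0.00431 ± 0.00181 in controls and 0.00145 ± 0.000296 with ILL (SD, n = 3), a log2 difference of -1.48 (exact permutation p = 0.1, adjusted p = 0.133) that rests on the few MMP7 counts.

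Other ratios were looked at after the values were seen and were not tested. PLAUR to PLAU was 0.617 ± 0.0429 in controls and 1.41 ± 0.0264 with ILL (SD, n = 3), so that receptor RNA went from below to above that of its ligand per length. That crossing depends on the gene lengths behind the deposited FPKM, while the change in the ratio does not. MMP10 to MMP1 was 0.134 ± 0.00988 and 0.287 ± 0.0170. TIMP3 to TIMP2 was 0.313 ± 0.0160 and 0.560 ± 0.0182, and TIMP2 to TIMP1 was 0.613 ± 0.0354 and 0.842 ± 0.0319. MMP14 made up 36.1% to 39.4% of the summed FPKM of MMP14 and the 3 TIMP genes in controls and 45.2% to 48.0% with ILL.

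Of the 23 metalloproteinase genes, 14 were tested and 6 were DEGs, all higher with ILL, against 12.5% of all genes tested. By adjusted p alone 9 were higher, against 36.2% of all genes tested, and 1 was lower. In either direction 73.1% of all genes tested passed that threshold. The median log2 fold change of the 14 was 0.87. Apart from MMP1, MMP7, MMP10 and MMP14, 10 were tested, 4 were DEGs and the median was 0.85. MMP24 and MMP25, membrane-anchored family members, rose by 1.83 and 1.64 on the log2 scale (adjusted p = 1.59e-07 and 9.41e-07, edgeR), at a mean of 1.14 and 0.890 FPKM with ILL. The other DEGs, MMP15 (1.29, adjusted p = 8.72e-14, edgeR) and MMP11 (1.13, adjusted p = 0.00355, edgeR), fell outside the rule for named genes and are given after their values were seen. MMP11 was no longer a DEG without control replicate 2, at 0.92 (adjusted p = 0.0197, edgeR).

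MMP2, the gelatinase that MMP14 activates, was the single tested metalloproteinase that fell past an adjusted p of 0.05, and it too was named after its values were seen. It had 3078, 2665 and 3337 counts in controls and 1762, 1730 and 1726 counts with ILL. No library overlapped, and the ILL libraries lay close together. MMP2 fell by 0.73 on the log2 scale (SE 0.07, adjusted p = 1.57e-09, edgeR). MMP14 and TIMP2, the partners in its activation, both rose, as given above. MMP9, the other gelatinase, had a log2 fold change of 0.45 (adjusted p = 0.25, edgeR) at 37 to 64 counts per library.

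Among 6 metalloproteinase inhibitors, all tested, 3 were DEGs, all higher, against 12.5% of all genes tested. The median log2 fold change of the 6 was 0.96. Apart from TIMP1, TIMP2 and TIMP3, 3 were tested, 1 was a DEG and the median was 0.56. The DEG besides TIMP2 and TIMP3 was TIMP4, with 55, 77 and 50 counts in controls and 287, 231 and 300 with ILL. It rose by 2.23 on the log2 scale (SE 0.21, adjusted p = 1.23e-09, edgeR) but reached only 6.40 ± 0.834 FPKM (SD, n = 3). RECK, a membrane-anchored MMP inhibitor, had a log2 fold change of -0.64 (adjusted p = 0.179, edgeR). A2M, a plasma inhibitor that traps many proteases, had 0.56 (adjusted p = 0.0836, edgeR). Its ILL counts were 81, 120 and 233, the last from ILL replicate 3, against 87 to 114 in controls. Neither passed the test.

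Of 15 genes of plasminogen activation, 12 were tested, 6 were DEGs higher with ILL and 1, SERPINA5, was a DEG in the other direction. Over all genes tested, 12.5% were DEGs higher with ILL and 11.4% were lower. The median log2 fold change of the 12 was 0.66. Without PLAU and PLAUR it was 0.20 over 10 tested genes, with 4 DEGs higher and 1 lower. SERPINB2 encodes PAI-2, an inhibitor of urokinase that stays largely inside cells. It had 15554, 14475 and 15857 counts in controls and 40122, 38883 and 39618 counts with ILL, a rise of 1.43 on the log2 scale (SE 0.05, adjusted p = 3.51e-18, edgeR). Its level was 190 ± 10.4 FPKM in controls and 490 ± 6.64 FPKM with ILL (SD, n = 3).

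SERPINA5, the protein C inhibitor, which also inhibits urokinase, fell by 1.11 on the log2 scale (adjusted p = 9.03e-11, edgeR). SERPINF2, the plasmin inhibitor, rose by 1.52 (adjusted p = 0.000522, edgeR) at 24 to 94 counts per library. Named after their values were seen, the tissue-type activator PLAT rose by 1.34 (adjusted p = 7.31e-10, edgeR) and LRP1, an endocytic receptor that clears inhibited urokinase, by 1.02 (adjusted p = 1.62e-12, edgeR). LRP1 was a DEG in 8 of 15 alternative settings. It lost the call when control replicate 1, control replicate 2 or ILL replicate 2 was left out, with scaling by library size only and in each of the limma fits, with values from 0.88 to 0.99.

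The surface complex that binds plasminogen did not move as one. ANXA2, which binds plasminogen together with S100A10, had a log2 fold change of 0.01 (SE 0.05, adjusted p = 0.915, edgeR). S100A10 had 50812, 48343 and 42483 counts in controls and 21905, 22944 and 22974 with ILL, and its log2 fold change of -0.995 (adjusted p = 1.11e-14, edgeR) stopped just short of a DEG. It was a DEG in 8 of 15 alternative settings, among them those without control replicate 3 (-1.05), ILL replicate 2 (-1.01) or ILL replicate 3 (-1.003). The plasminogen receptor gene PLGRKT had 0.10 (adjusted p = 0.298, edgeR). PLG, which encodes plasminogen, had 0 counts in every library, which allows up to 3. S100A10, ANXA2 and PLGRKT were named after their values were seen.

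ADAM and ADAMTS proteases, which shed membrane proteins or cut proteoglycans, moved in both directions. Of 30 genes 20 were tested, and 5 were DEGs higher with ILL and 4 lower, against 12.5% and 11.4% of all genes tested. The median log2 fold change of the 20 was 0.29. ADAM17, the TNF-releasing protease that TIMP3 inhibits, had 1431, 1231 and 1098 counts in controls and 2864, 2719 and 2642 with ILL. It rose by 1.20 on the log2 scale (SE 0.07, adjusted p = 8.6e-14, edgeR), and ADAM8 rose by 1.60 (adjusted p = 2.17e-17, edgeR). ADAMTS17 rose by 1.14 and ADAMTS6 fell by 2.10 on the log2 scale (adjusted p = 0.000893 and 7.68e-08, edgeR), both below 1 FPKM. ADAM22 fell by 1.04 (adjusted p = 0.0126, edgeR) and was no longer a DEG without control replicate 3, at -0.96, or without ILL replicate 1. The other DEGs, outside the rule for named genes, were ADAM23 and ADAMTS9, which were higher, and ADAM12 and ADAMTS16, which were lower. All of them had a mean below 1 FPKM in both groups. ADAM23 had 1, 9 and 4 counts in controls and 11, 11 and 23 with ILL. ADAM12 had 40, 13 and 29 counts in controls and 8, 2 and 0 with ILL. Each of these genes passed the filter on low counts through its higher group. Without control replicate 1, ADAM23 and ADAMTS9 both lost the call, at log2 fold changes of 1.20 and 0.86 (adjusted p = 0.172 and 0.0402, edgeR). Both also lost it without ILL replicate 3, at 1.27 and 0.80 (adjusted p = 0.208 and 0.0812, edgeR). ADAM23 lost it without control replicate 3 as well, at 1.62 (adjusted p = 0.104, edgeR). It was not a DEG by DESeq2's Wald test (adjusted p = 0.0788) or with no filter on low counts (adjusted p = 0.111, edgeR). ADAM23 was a DEG in 6 of 15 alternative settings and ADAMTS9 in 9, with ADAMTS9 at 0.99 when scaled by library size only.

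Of 14 membrane-bound serine proteases and Kunitz inhibitors, 11 were tested and all 11 had a log2 fold change above 0, as did 49.9% of all genes tested. By adjusted p alone 9 were higher, against 36.2% of all genes tested, and 6 were DEGs higher with ILL, against 12.5%, with a median log2 fold change of 1.27. TMPRSS3 rose by 2.92 on the log2 scale (adjusted p = 2.46e-14, edgeR), from 52 to 88 counts per control library to between 516 and 535 with ILL. PRSS8, or prostasin, rose by 2.01 (adjusted p = 2.74e-18, edgeR), and DPP4, a surface dipeptidase, by 1.58 (adjusted p = 0.000176, edgeR) at 22 to 107 counts. Looked at after their values were seen, ST14, which encodes matriptase, an activator of pro-urokinase, rose by 1.27 (adjusted p = 2.63e-14, edgeR), and its Kunitz inhibitor SPINT1 rose by 1.12 (adjusted p = 7.44e-14, edgeR). Protease and inhibitor thus both rose in this pair as well.

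Proprotein convertases include the enzyme that activates MMP14 inside the cell. Of 9 genes 7 were tested and 1 was a DEG, lower with ILL, against 11.4% of all genes tested. By adjusted p alone 4 were higher and 1 was lower, and 73.1% of all genes tested passed in either direction. FURIN, the convertase of pro-MMP14, had a log2 fold change of 0.13 (SE 0.05, adjusted p = 0.0291, edgeR) and was named after its values were seen. The median of the list was 0.31.

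Some of these genes overlap others in GENCODE 29, and whether reads were counted by strand is not given in the sources used here. TIMP1 lies within SYN1 and TIMP3 within SYN3, each on the opposite strand, but SYN1 had at most 4 counts and SYN3 at most 9 in any library. TIMP2 shares its strand with the overlapping CEP295NL, which had at most 14 counts. PLAU overlaps C10orf55, and MMP1 and MMP10 overlap the pseudogene WTAPP1, both antisense and not analysed here, so reads from these partners could not be told apart from those of PLAU, MMP1 and MMP10. The same holds for PLAUR, which RN7SL368P overlaps on the same strand, and for TIMP2 with AC022966.1, AC100788.1 and AC100788.2, none of them analysed here.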

How the data were processed

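HCCC9810 RNA-seq libraries treated with ILL or vehicle were grouped by GEO's labels, 3 per group. The authors deposited raw counts per gene symbol and FPKM values computed from them by gene length and library total, 1 column per library. The submitters' processing notes name GRCh38 and DESeq2. The aligner, counting program and annotation are not given in the sources used here.

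Counts were filtered with filterByExpr and scaled by TMM, and ILL was compared with control by edgeR's quasi-likelihood test (edgeR 4.0.16, R 4.3.3) with Benjamini-Hochberg adjustment over 13066 genes. DEG cutoffs were those of the study. CPM values use TMM-scaled library sizes. The fit was tested on simulated data. Alternatives used DESeq2 1.42.0, limma 3.58.1 on FPKM with a pseudocount of 1 or 0.1, other scalings and filters, a replicate block, each library left out, and no fold cutoff. With a biological coefficient of variation of 0.0717, replicate spread rather than depth limits precision, except for genes with few counts such as MMP7.

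Named by rule were the 9 genes and, from each wider list, at most 3 DEGs per direction with the largest change among genes that averaged 1 CPM or more without overlap, and the results of a few genes named by the rule, with 1 ratio, are not reported here. Genes and lists were chosen with earlier results of these data known. Gene positions are from GENCODE 29, promoter sequences from RefSeq (GRCh38.p14). Floors for counts of 0 (3 counts) cover counting error only, while the 95% interval of a fold change, from edgeR's standard error, includes the spread between libraries.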

Additional observations from a re-analysis of the deposited data

How the results depend on the processing

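All of the 9 genes kept their direction in every alternative that tested them, and each stayed on its side of the adjusted p threshold. A minimum of 10 counts in every library and the limma fits on genes with a mean of at least 1 FPKM left MMP7 untested. The number of DEGs among the 9 was 6 in the other settings, 8 with no fold cutoff and 6 to 7 when single libraries were left out, the added gene being MMP1 without control replicate 3. Leaving out libraries gave 3083 to 3165 DEGs over all genes, 1610 to 1682 higher and 1451 to 1501 lower. With no fold cutoff there were 9547, 4726 higher and 4821 lower. Limma on log2(FPKM + 1) gave 1591 DEGs (668 higher, 923 lower) with a mean of at least 1 FPKM and 1609 (680 higher, 929 lower) with no filter, and log2(FPKM + 0.1) gave 909 higher. In each of these 3 limma fits the metalloproteinase list had 3 DEGs and the ADAM and ADAMTS list had 2. The FPKM filter left 8 tested genes in either list, and a pseudocount shrinks the changes of low genes. Across single libraries left out, DEGs numbered 5 to 7 in the metalloproteinase list, 6 to 8 in plasminogen activation and 7 to 9 in the ADAM and ADAMTS list.

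Replicate numbers did not pair the libraries: deviations of same-numbered libraries correlated at 0.0107, -0.0218 and -0.0179, and only number 1 matched best with itself. With the replicate number as a block, 3111 genes were DEGs, 6 of the 9 genes among them, and the log2 fold changes of MMP1, MMP7 and PLAUR were 0.87, -0.78 and 2.30.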
